A study of Homo sapiens with 12 samples.

Results

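The Notch pathway was followed through 10 of its genes in 2 human pancreatic ductal adenocarcinoma lines. The genes are the receptors NOTCH1, NOTCH2 and NOTCH3, the ligands JAG1, JAG2 and DLL4, and the target genes HES1, HES4, HEY1 and NRARP. They were taken from the deposited table of 60564 genes by their symbols, and all 10 were found, each in 1 row. The lines are CFPAC-1 and BxPC-3, both established from human tumours of the pancreatic duct. Each line was grown in normal culture (control) or kept without serum for 48 h to make the cells grow primary cilia (induced). There are 4 groups of 3 libraries, 12 libraries in all, with no other treatment and no genetic change named. By the series text, cilia were seen on 7% of CFPAC-1 cells before induction and 39% after it, and on 5% and 78% for BxPC-3, with no error given. Every induced library came from starved cells, so starvation and ciliation cannot be told apart.

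Notch receptors sit on the cell surface and are bound by ligands of the Jagged and Delta families on a neighbouring cell. Ligand binding lets ADAM proteases and then gamma-secretase cut the receptor, and the freed intracellular part joins the DNA-binding protein RBPJ and Mastermind-like coactivators to switch on genes of the HES and HEY families. In the pancreas, Notch signalling is known for holding progenitor cells undifferentiated and for its activity in duct and centroacinar cells and in tumours derived from them.

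Values are FPKM, fragments scaled to transcript length and to the mapped fragments of the library, so levels of different genes can be set side by side per length. Tests used limma on log2(FPKM + 1) over all 12 libraries, with Benjamini-Hochberg adjustment over 12860 tested genes, and a gene was called where its adjusted p was under 0.05. All log2 changes are differences on that scale, which understates changes of low genes. Genes with at least 1 FPKM in at least 3 libraries were tested. Of the 10 Notch genes 8 passed that filter. NOTCH3 and DLL4 did not, and HEY1 passed only through CFPAC-1 control 2 and 3 and BxPC-3 induced 1. The depth in reads is not known from these values. Nothing in the labels says whether the 3 libraries of a group are separate cultures. The p-values thus measure only how far these libraries spread, and that spread may be technical.

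CFPAC-1 control 2 and 3 stood apart from the libraries of their line. They correlated at 0.99 with each other across tested genes, and at a mean of 0.803 with the other 4 libraries of that line, which correlated at 0.944 among themselves. CFPAC-1 results are therefore given with and without these libraries. Without them a lone control, whose spread is taken from the other groups, stands against 3 induced libraries. Over 8 duct epithelium markers the summed level was 472 to 1102 FPKM in CFPAC-1 and 1405 to 1815 FPKM in BxPC-3 libraries. Among them the keratin KRT7 was at 0.340 to 2.01 FPKM in CFPAC-1 and 395 FPKM or more in BxPC-3, and the cadherin CDH1 was under 1 FPKM in CFPAC-1 and at 38.2 FPKM or more in BxPC-3. Others went the other way in control libraries. There KRT8 was at 270 to 316 FPKM in CFPAC-1 and 80.2 to 149 FPKM in BxPC-3. KRT18 was at 254 to 318 and 135 to 186 FPKM, and SOX9 at 17.9 to 55.1 and 4.13 to 17.1 FPKM. MUC1 overlapped between the lines. The keratin KRT19 was at 7.42 and 7.67 FPKM and EPCAM at 0.963 and 1.04 FPKM in CFPAC-1 control 2 and 3, against 254 and 11.2 FPKM or more in all other libraries. All 6 endothelial markers were under 1 FPKM in every library. Of 5 fibroblast markers LUM was at 25.5 to 108 FPKM in CFPAC-1 control 1 and induced libraries and at 0.0911 FPKM or less elsewhere. COL1A1 went the other way, at 4.27 and 4.28 FPKM in CFPAC-1 control 2 and 3 and 0.140 FPKM or less in the other CFPAC-1 libraries. It was at 0.708 to 1.45 FPKM in BxPC-3. COL1A2, DCN and PDGFRB were under 1 FPKM in every library. The pan-leukocyte marker PTPRC was at 0.00981 FPKM or less throughout. CD68, a macrophage marker, was at 6.64 to 12.8 FPKM in CFPAC-1 control, 37.1 to 47.8 FPKM in CFPAC-1 induced and 1.78 to 6.22 FPKM in BxPC-3 libraries. CD14, also among the immune markers, was at 4.22 and 3.97 FPKM in CFPAC-1 control 2 and 3 and 0.393 FPKM or less in the other CFPAC-1 libraries. In BxPC-3 it was at 1.39 to 2.18 FPKM in control and 6.31 to 7.06 FPKM in induced libraries. CD3E and MS4A1 were at 0.201 FPKM or less throughout. The part of these markers in the results was not tested.

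No Notch gene passed the test on induction in either line, and the clearest difference was between the lines: JAG2 was 28.7-fold higher in induced BxPC-3 than in induced CFPAC-1 cells. In induced cells BxPC-3 also had higher values of JAG1, HES4, HEY1 and NRARP in every library, whereas HES1 overlapped between the lines. Such a separation was found for 32.1% of all tested genes. JAG1, HES4, HEY1 and NRARP did not pass the test with all libraries in the fit, and HEY1 was at 1.55 FPKM or less in these libraries. Among control libraries of the same label NRARP differed widely, control 2 and 3 of CFPAC-1 averaging 26.7 times control 1. In bulk RNA, fewer cells that express a gene and less RNA per cell cannot be told apart.

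**Figure D1:**
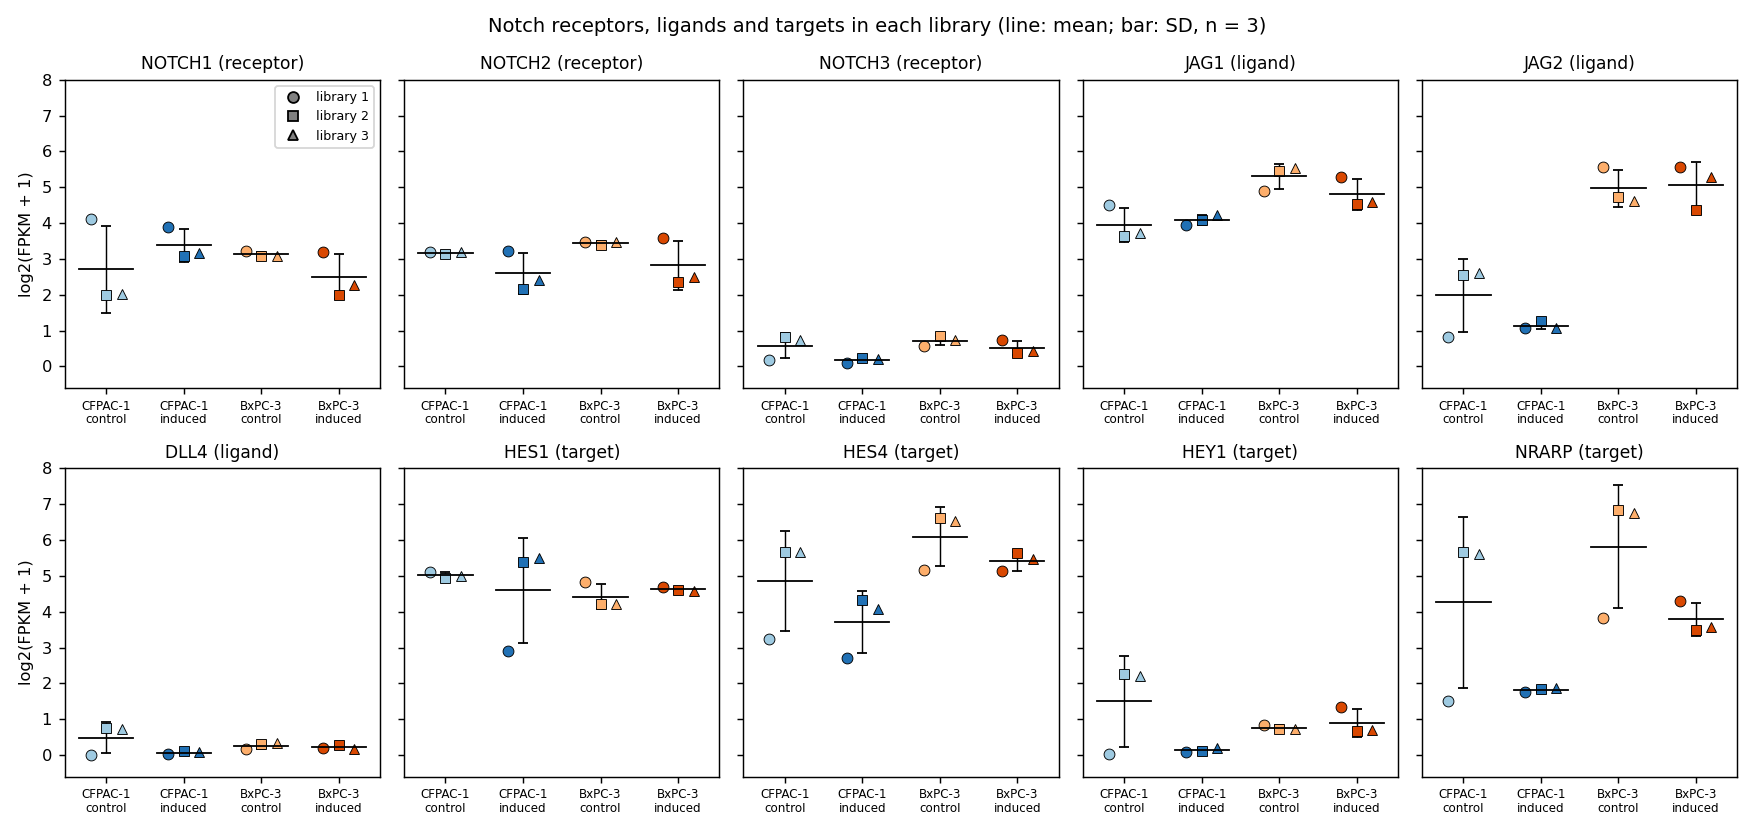
Level of each of the 10 Notch genes as log2(FPKM + 1), 1 panel per gene, with the 3 libraries of each group as separate symbols, the group mean as a line and the SD as a bar. CFPAC-1 control 2 and 3 and BxPC-3 control 2 and 3 stand high for NRARP and HES4, and JAG2 is high in all 6 BxPC-3 libraries.

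NOTCH1 and NOTCH2 were the receptors present, at mean levels of 7.498 and 7.49 FPKM over the 4 groups. NOTCH1 (ENSG00000148400; chromosome 9, 136494433 to 136545786, GRCh38) stood at 16.3, 2.98 and 3.07 FPKM in CFPAC-1 control libraries 1, 2 and 3 and at 13.9, 7.47 and 7.91 FPKM in induced ones. BxPC-3 had it at 8.24, 7.46 and 7.51 FPKM in the 3 control libraries, against 8.23, 3.02 and 3.87 FPKM in the 3 induced ones. The groups overlapped in both lines, control 1 of CFPAC-1 being the highest library and its control 2 the lowest of all. The log2 change was 0.67 in CFPAC-1 (SE 0.51, 95% interval -0.46 to 1.79; limma adjusted p = 0.372) and -0.63 in BxPC-3 (SE 0.51, -1.75 to 0.50; adjusted p = 0.828). Without CFPAC-1 control 2 and 3 the CFPAC-1 value was -0.74 (limma adjusted p = 0.434), the opposite sign.

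NOTCH2 (ENSG00000134250; chromosome 1, 119911553 to 120069626) varied little in control cells, with means of 8.05 ± 0.198 FPKM in CFPAC-1 and 9.94 ± 0.389 FPKM in BxPC-3 (SD, n = 3). It stood at 8.12, 7.82 and 8.20 FPKM in CFPAC-1 control and at 10.2, 9.49 and 10.1 FPKM in BxPC-3 control libraries, and these groups did not overlap. In induced cells it stood at 8.38, 3.45 and 4.30 FPKM in CFPAC-1 and at 11.0, 4.16 and 4.62 FPKM in BxPC-3. Thus induced library 1 of each line was above every control of that line, and induced 2 and 3 were below all of them. The log2 change was -0.58 in CFPAC-1 (SE 0.33; limma adjusted p = 0.225; -0.59 without control 2 and 3) and -0.64 in BxPC-3 (SE 0.33; adjusted p = 0.652). NOTCH2NL, a partial copy of NOTCH2 that may share its reads, was listed at 2.28 to 5.46 FPKM, so the single values of NOTCH2 are uncertain.

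NOTCH3 (ENSG00000074181; chromosome 19, 15159038 to 15200981), a receptor best known from vascular smooth muscle, stayed below 1 FPKM in every library. Its values were 0.133, 0.777 and 0.655 FPKM in CFPAC-1 control and 0.0771, 0.175 and 0.144 FPKM in induced libraries. In BxPC-3 they were 0.492, 0.795 and 0.670 FPKM in control and 0.655, 0.286 and 0.356 FPKM in induced libraries. NOTCH3 made up 0.345% to 6.71% of the summed receptor FPKM of a library.

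The make-up of the receptors was close among the libraries of BxPC-3. NOTCH1 took 40.4% to 43.7% of the summed receptor FPKM in all 6 BxPC-3 libraries, control or induced, and 62.2% to 67.3% in the induced CFPAC-1 libraries. CFPAC-1 control 1 was within that last range at 66.4%, and control 2 and 3 were apart at 25.7% and 25.7%. The sum itself ran from 7.46 to 19.9 FPKM in induced BxPC-3, with library 1 the highest.

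**Figure D2:**
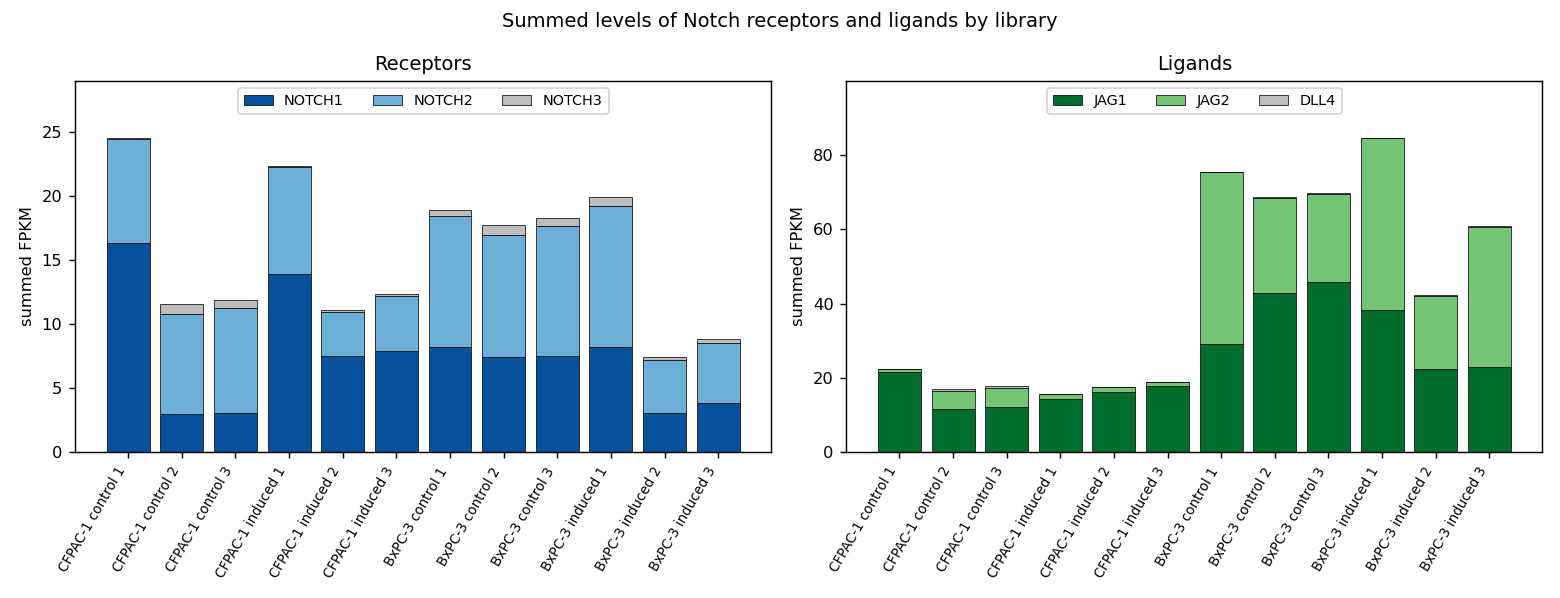
Summed FPKM of the receptors (left) and ligands (right) in each library, stacked by gene. The receptor sum is higher in library 1 than in libraries 2 and 3 of every group, though by little in BxPC-3 control, and JAG2 makes up 34.0% or more of the ligand sum in BxPC-3 libraries and 28.6% or less in CFPAC-1 libraries.

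The ligands set the lines apart. JAG2 (ENSG00000184916; chromosome 14, 105140981 to 105168824), a ligand of the Jagged family, stood at 46.4, 25.6 and 23.7 FPKM in the 3 BxPC-3 control libraries, against 46.4, 19.7 and 37.8 FPKM in the 3 BxPC-3 induced ones. In CFPAC-1 it stood at 0.753, 4.82 and 5.10 FPKM in the 3 control libraries, against 1.12, 1.40 and 1.10 FPKM in the 3 induced ones. Every BxPC-3 library was above every CFPAC-1 library. Between the induced groups the log2 difference was 3.93 (SE 0.47, 95% interval 2.91 to 4.96; limma adjusted p = 8.85e-05). On induction the log2 change of JAG2 was -0.85 in CFPAC-1 (SE 0.47; limma adjusted p = 0.214), but 0.33 without control 2 and 3 (adjusted p = 0.786), and 0.10 in BxPC-3 (SE 0.47; adjusted p = 1).

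JAG1 (ENSG00000101384; chromosome 20, 10637684 to 10673999), the other Jagged ligand, was the main ligand of CFPAC-1. It stood at 21.6, 11.5 and 12.1 FPKM in the 3 control libraries, against 14.4, 16.0 and 17.8 FPKM in the 3 induced CFPAC-1 ones. BxPC-3 had it at 29.02, 42.9 and 45.8 FPKM in the 3 control libraries, against 38.2, 22.3 and 22.8 FPKM in the 3 induced ones. The lines did not overlap, while control and induced values overlapped within each. The induced lines differed by 0.71 (SE 0.28, 95% interval 0.09 to 1.34; limma adjusted p = 0.0716), which passed without CFPAC-1 control 2 and 3 (adjusted p = 0.039). The log2 change on induction was 0.14 in CFPAC-1 (limma adjusted p = 0.763) and -0.50 in BxPC-3 (adjusted p = 0.695). Without CFPAC-1 control 2 and 3 the CFPAC-1 value was -0.41 (limma adjusted p = 0.599).

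JAG2 made up 5.79% to 8.00% of the summed ligand FPKM in induced CFPAC-1 and 46.7% to 62.2% in induced BxPC-3 libraries. In control cells its share was 3.38% to 28.6% in CFPAC-1 and 34.0% to 61.4% in BxPC-3. The ligand sum was 15.5 to 22.3 FPKM in the 6 CFPAC-1 libraries and 42.2 to 84.7 FPKM in the 6 BxPC-3 libraries. DLL4 (ENSG00000128917; chromosome 15, 40929333 to 40939073), the Delta ligand of sprouting endothelium, added little. It was listed at 0 in CFPAC-1 control 1, stood at 0.679 and 0.653 FPKM in control 2 and 3, and was at 0.0206 to 0.263 FPKM in the other 9 libraries. JAG1 shares exon sequence with AL050403.2 and JAG2 with AL512356.1, which were listed at no more than 0.0226 and 0.609 FPKM.

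Of the target genes, HES1 and HES4 encode basic helix-loop-helix repressors. Stretches of their promoters are shown as a description, and whether these bear on the levels of the genes was not tested. RefSeq promoter windows were found for 9 of the 10 genes, all but HEY1. The RBPJ core TGGGAA was searched on both strands in the 250 bases before each start site. It was found at 2 places in HES1 and 1 place in HES4, each on the gene's own strand, and in none of the other 7 windows. Of 35116 promoter windows 20.8% held at least 1 match and 2.9% held 2 or more. The first bases of the matches lay 84 and 70 bases before the start in HES1 and 76 bases before it in HES4. In the 30 bases printed 5′ to 3′ along each gene's strand, capitals mark the matches. The RefSeq start of HES4 lies inside the GENCODE span of the gene given with its values, so by GENCODE most of its stretch is within the gene and the match spans the gene's start. The coordinates are those of RefSeq (GRCh38.p14; chr3:194136059-194136088, plus strand, and chr1:1000149-1000178, minus strand).
HES1: tactgTGGGAAagaaagttTGGGAAgtttc
HES4: gagtgTGGGAAagaatgcggagccgggttc
The N-box CACNAG, which HES proteins bind, had 3 matches over both strands in the HES1 window, 1 in that of NOTCH3, and none in the other 7 windows, with 32.0% of all windows holding at least 1; no match overlapped the RBPJ core. A match is a run of letters and not a measured site.

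HES1 (ENSG00000114315; chromosome 3, 194136145 to 194138732) stood at 33.7, 30.01 and 31.1 FPKM in CFPAC-1 control libraries. Induced CFPAC-1 libraries gave 6.51, 40.8 and 44.0 FPKM, so that 1 library was the lowest of all 12 and the others the highest. BxPC-3 libraries gave 27.3, 17.5 and 17.6 FPKM in control and 24.7, 23.4 and 22.9 FPKM in induced cells. The groups overlapped in both lines. The log2 change was -0.43 in CFPAC-1 (SE 0.53, 95% interval -1.60 to 0.74; limma adjusted p = 0.596). It was -0.52 without CFPAC-1 control 2 and 3, and 0.41 without CFPAC-1 induced 1. In BxPC-3 it was 0.21 (SE 0.53; limma adjusted p = 0.986). Between the induced lines it was 0.03 (SE 0.53, 95% interval -1.15 to 1.20; limma adjusted p = 0.976) and -0.05 after quantile normalization. Without CFPAC-1 induced 1 it was -0.82 and passed (limma adjusted p = 0.0117).

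HES4 (ENSG00000188290; chromosome 1, 998962 to 1000172) had its highest values in BxPC-3 control 2 and 3, where HES1 was lowest in that line. It stood at 8.48, 49.9 and 50.0005 FPKM in the 3 CFPAC-1 control libraries, against 5.56, 19.1 and 15.8 FPKM in the 3 induced ones. BxPC-3 had it at 34.7, 96.7 and 90.9 FPKM in the 3 control libraries, against 34.0, 49.0 and 43.0 FPKM in the 3 induced ones. Control 2 and 3 were the highest libraries of each line, and library 1 was the lowest of its group throughout. The log2 change was -1.16 in CFPAC-1 (SE 0.65, 95% interval -2.59 to 0.27; limma adjusted p = 0.223) and 0.46 without control 2 and 3 (adjusted p = 0.794). In BxPC-3 it was -0.69 (SE 0.65, -2.12 to 0.74; limma adjusted p = 0.866). In induced cells HES4 was 3.11-fold higher in BxPC-3 by the group means, a log2 difference of 1.71 (SE 0.65, 0.28 to 3.14; limma adjusted p = 0.0611), which passed without CFPAC-1 control 2 and 3 (adjusted p = 0.0147). It also passed with the library number as a replicate block (limma adjusted p = 0.0049). Same-numbered induced libraries of the lines deviated together, at correlations of 0.125 to 0.287, and so did number 2 of each line with number 3 of the other, at 0.139 and 0.181.

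NRARP (ENSG00000198435; chromosome 9, 137300482 to 137302251) encodes a small ankyrin repeat protein that Notch induces and that lowers Notch signalling in return. It had the largest standard error of the 8 tested genes. BxPC-3 had it at 13.3, 113 and 108 FPKM in the 3 control libraries, against 18.7, 10.2 and 10.9 FPKM in the 3 induced ones. In CFPAC-1 it stood at 1.84, 49.8 and 48.4 FPKM in the 3 control libraries, against 2.40, 2.60 and 2.64 FPKM in the 3 induced ones. In both lines control 2 and 3 were high and control 1 was not, so the induced values overlapped the control values in BxPC-3 and lay just above control 1 in CFPAC-1. The mean of control 2 and 3 was 8.33 times control 1 in BxPC-3 and 26.7 times control 1 in CFPAC-1.

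The log2 change of NRARP on induction was -2.03 in BxPC-3 (SE 1.03, 95% interval -4.29 to 0.24; limma adjusted p = 0.642) and -2.44 in CFPAC-1 (SE 1.03, -4.70 to -0.18; adjusted p = 0.115). Within library number 1 it was 0.47 and 0.26, and within numbers 2 and 3 it was -3.27 and -3.79, in BxPC-3 and CFPAC-1. Without CFPAC-1 control 2 and 3 it was 0.32 in CFPAC-1 (limma adjusted p = 0.923). Between the induced lines NRARP was 5.21-fold higher in BxPC-3 by the group means, with no overlap. That log2 difference of 1.96 (SE 1.03; limma adjusted p = 0.162) passed without CFPAC-1 control 2 and 3 (adjusted p = 0.0378).

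HEY1 (ENSG00000164683; chromosome 8, 79764010 to 79767863), a HES-related repressor, was at 1.55 FPKM or less outside 2 libraries. It stood at 0.0240, 3.77 and 3.64 FPKM in the 3 CFPAC-1 control libraries, against 0.0583, 0.0768 and 0.158 FPKM in the 3 induced ones. BxPC-3 libraries gave 0.800, 0.646 and 0.657 FPKM in control and 1.55, 0.581 and 0.612 FPKM in induced cells. The log2 change of -1.37 in CFPAC-1 (SE 0.48; limma adjusted p = 0.0666) was 0.10 without control 2 and 3. In BxPC-3 it was 0.13 (SE 0.48; limma adjusted p = 0.996). Between the induced lines it was 0.77 (SE 0.48; limma adjusted p = 0.235), at levels of 0.0583 to 1.55 FPKM. Only 1 library reached 1 FPKM once CFPAC-1 control 2 and 3 were left out, so no call is made on HEY1 there.

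Counted over the 8 tested genes, 0 rose and 0 fell in CFPAC-1 (limma), where 16.6% of all tested genes were called, and 2, HEY1 and NRARP, had an unadjusted p under 0.05 (background 36.0%). With CFPAC-1 control 2 and 3 left out, 0 passed (background 1.73%) and 0 had an unadjusted p under 0.05 (background 18.1%). In BxPC-3, 0 of 8 passed and 0 had an unadjusted p under 0.05, where 0.334% of all tested genes were called (limma) and 8.52% had such a p. With CFPAC-1 control 2 and 3 out of the shared spread, 0 of 8 passed there (background 0.404%) and 1, NRARP, had an unadjusted p under 0.05 (background 12.3%). Control and induced values did not fully separate for any of the 10 genes in either line; over all tested genes they separated for 31.6% in CFPAC-1 and 17.2% in BxPC-3. The median log2 change of the 8 genes was -0.71 in CFPAC-1, -0.15 without control 2 and 3, and -0.56 in BxPC-3, against -0.09, -0.05 and 0.06 over all tested genes. Without CFPAC-1 control 1, which leaves control 2 and 3 as the reference, 5 of the 8 passed in CFPAC-1, where 42.0% of all tested genes were called: NOTCH1 rose by 1.37, and JAG2, HES4, HEY1 and NRARP fell by 1.44, 1.97, 2.10 and 3.82. HEY1 passed the filter only through CFPAC-1 control 2 and 3 and BxPC-3 induced 1. Its fall here and its unadjusted p in CFPAC-1 are therefore not read as results.

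**Figure D3:**
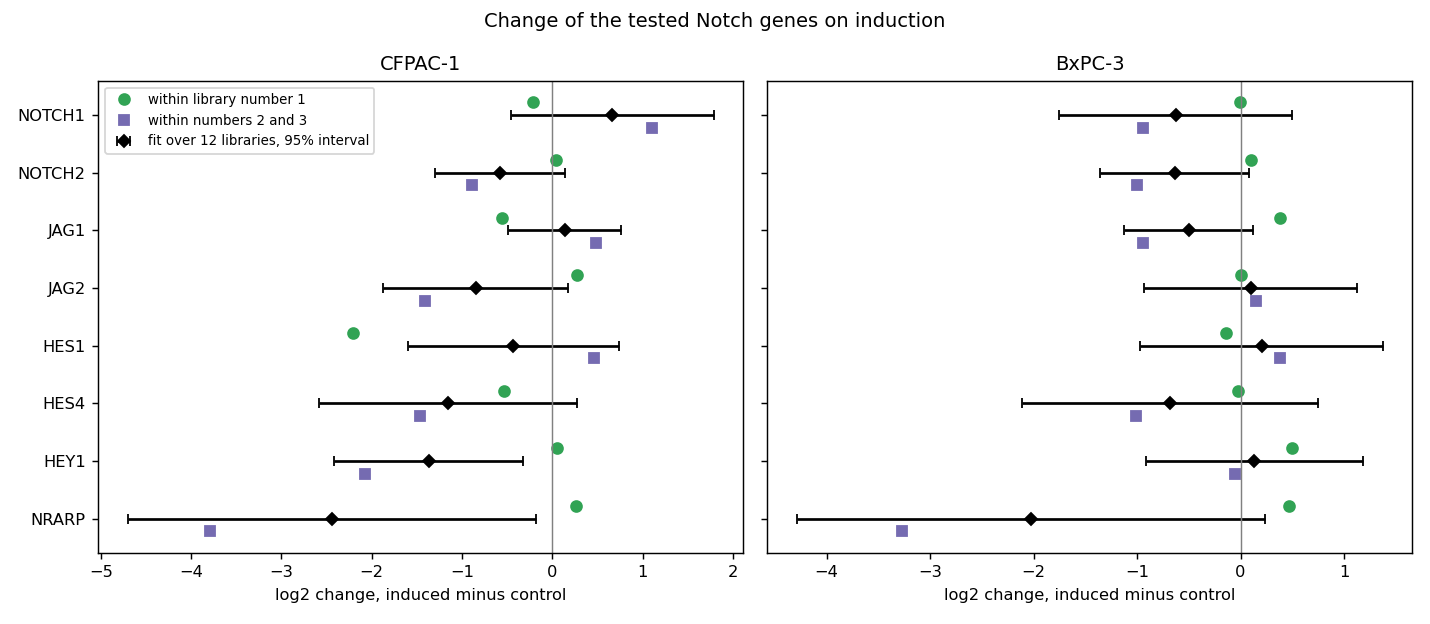
Log2 change of the 8 tested Notch genes, induced minus control, in CFPAC-1 (left) and BxPC-3 (right): diamonds are the fit over 12 libraries with its 95% interval, circles the change within library number 1, squares that within numbers 2 and 3. For NRARP the circles lie at 0.26 and 0.47 and the squares at -3.79 and -3.27.

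Whether the change on induction differed between the lines was tested as the change in BxPC-3 minus that in CFPAC-1. Of the 8 tested genes 0 passed (limma; background 2.45%), and 1, HEY1, had an unadjusted p under 0.05 (background 24.3%), with a difference of 1.501 (SE 0.67; limma adjusted p = 0.2004). Without CFPAC-1 control 2 and 3, 0 passed (background 0.428%) and 0 had an unadjusted p under 0.05 (background 16.5%). The difference for NRARP was 0.41 (SE 1.46) with all libraries and -2.35 (SE 1.16; limma adjusted p = 0.348) without those 2. Without CFPAC-1 control 1, 3 of the 8 passed, namely NOTCH1, JAG2 and HEY1, where 32.3% of all tested genes were called. The values of HEY1 are not read as results, since only CFPAC-1 control 2 and 3 and BxPC-3 induced 1 took it past the filter.

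In the comparison of the induced lines, 1 of the 8 genes passed with all libraries in the fit, JAG2, where 36.2% of all tested genes were called (21.4% higher in BxPC-3). Leaving out CFPAC-1 control 2 and 3 gives the same differences, since those libraries are in neither group, but the shared spread is smaller. Then 6 passed against a background of 44.0%, HEY1 among them through the filter on 12 libraries. With the filter on the remaining 10 libraries HEY1 was not tested, and 5 of 7 passed against a background of 44.3%. Of these, 4 were higher in BxPC-3 (JAG1, JAG2, HES4 and NRARP) and 1 was lower (NOTCH1, log2 difference -0.88; limma adjusted p = 0.045). Without CFPAC-1 control 1 also 6 of 8 passed, HEY1 again among them, where 47.3% of all tested genes were called. With the replicate block 2 of 8 passed, JAG2 and HES4, where 4881 of all 12860 tested genes were called. Of the 8 genes 5 were higher in every induced BxPC-3 library than in every induced CFPAC-1 library, and none was lower throughout, against 32.1% and 22.4% of all tested genes. NOTCH3 and DLL4, which were not tested, were also higher throughout, at 0.433 ± 0.196 against 0.132 ± 0.0503 FPKM and at 0.160 ± 0.0419 against 0.0501 ± 0.0269 FPKM (SD, n = 3). In control cells NOTCH2, JAG1 and JAG2 were higher and HES1 lower in every BxPC-3 library, 4 of 8 tested genes, where 42.3% of all tested genes separated.

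**Figure D4:**
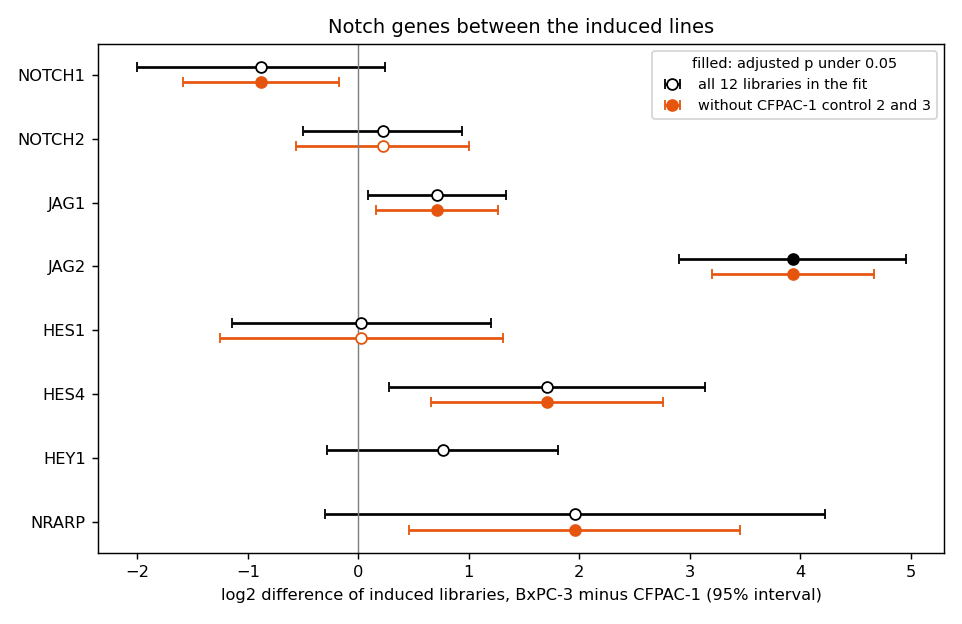
Log2 difference between induced BxPC-3 and induced CFPAC-1 libraries for the 8 tested Notch genes, with 95% intervals, for the fit with all 12 libraries (black) and without CFPAC-1 control 2 and 3 (orange, HEY1 left out). JAG2 lies at 3.93 in both fits, and filled symbols mark an adjusted p under 0.05.

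The order of the group means differed by gene. JAG1, NOTCH2, NOTCH3, HES4 and NRARP were highest in BxPC-3 control, JAG2 in BxPC-3 induced, NOTCH1 in CFPAC-1 induced, and HES1, HEY1 and DLL4 in CFPAC-1 control. Neighbours in these orders mostly overlapped. The neighbours that did not were the first 2 groups for NOTCH2, the BxPC-3 and CFPAC-1 sides for JAG1 and JAG2, and CFPAC-1 induced as the lowest group for NOTCH3, DLL4, HEY1 and NRARP.

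The libraries that stood apart did so for many of these genes, and for a large share of all tested genes. CFPAC-1 control 2 and 3 both lay outside the range of the other 4 libraries of that line for 8 of the 10 genes: above it for NOTCH3, JAG2, DLL4, HES4, HEY1 and NRARP, and below it for NOTCH1 and JAG1. Over all tested genes this held for 55.9%. BxPC-3 control 2 and 3 lay outside the range of the other 4 libraries for 6 genes, above it for NOTCH3, JAG1, DLL4, HES4 and NRARP and below it for HES1, against 38.4% of all tested genes. NOTCH3 and DLL4 are in both counts but were not tested, so they are not in the shares. HEY1 passed the filter partly through CFPAC-1 control 2 and 3 themselves. Only NOTCH2 and HES1 in CFPAC-1, and NOTCH1, NOTCH2, JAG2 and HEY1 in BxPC-3, did not set these libraries apart.

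The change of the long receptor and ligand transcripts differed with library number. NOTCH1, NOTCH2 and JAG1 have 10377, 16807 and 9298 exonic bases. Within library number 1 the log2 changes on induction of NOTCH2 were 0.04 in CFPAC-1 and 0.11 in BxPC-3, and within numbers 2 and 3 they were -0.89 and -1.01. Over the 2181 tested genes with more than 8000 exonic bases the median change was 0.04 and 0.19 within number 1 and -0.33 and -0.12 within numbers 2 and 3, in CFPAC-1 and BxPC-3. Over the 2389 genes under 2000 bases it was 0.01 and -0.06 within number 1 and 0.08 and 0.10 within numbers 2 and 3. NOTCH1 in BxPC-3 stood at 8.24 and 8.23 FPKM in control and induced library 1, and its log2 change was -0.94 within numbers 2 and 3. JAG1 in BxPC-3 had 0.38 within number 1 and -0.94 within numbers 2 and 3. In CFPAC-1 the order was the opposite: NOTCH1 had -0.22 and 1.11, and JAG1 had -0.55 and 0.48. All CFPAC-1 changes within numbers 2 and 3 take as reference control 2 and 3, the libraries that stood apart. Set against control 1, the induced CFPAC-1 libraries had median changes of 0.08 under 2000 bases and -0.23 over 8000 bases. The mitochondrial share of the summed FPKM was 34.0% in CFPAC-1 control 1, 11.6% in induced 1 and 19.9% to 22.8% in the other 4 CFPAC-1 libraries. In BxPC-3 it was 28.8% in control 1 and 24.6% and 25.9% in control 2 and 3, and 22.3% in induced 1 and 18.7% and 18.6% in induced 2 and 3. The part of transcript length or RNA quality in these values was not tested.

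**Figure D5:**
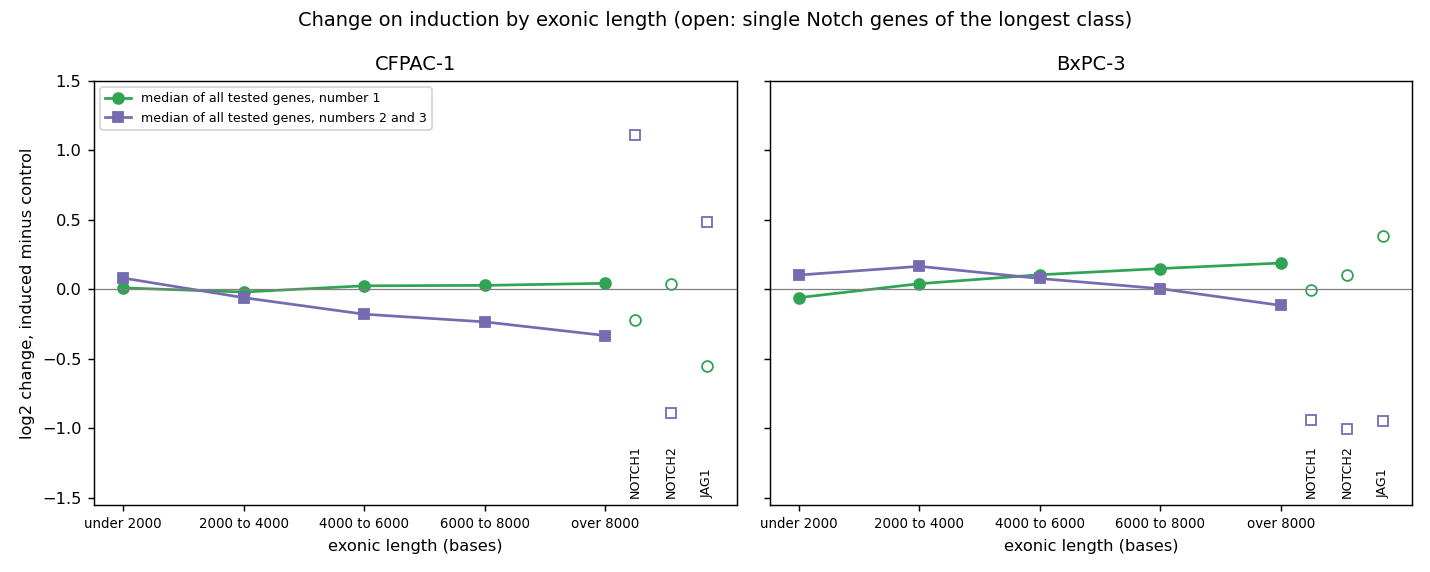
Median log2 change on induction of all tested genes in 5 classes of exonic length, within library number 1 (circles) and within numbers 2 and 3 (squares), for CFPAC-1 (left) and BxPC-3 (right); open symbols are NOTCH1, NOTCH2 and JAG1. In the longest class the median is 0.19 within number 1 and -0.12 within numbers 2 and 3 of BxPC-3, where NOTCH2 is at 0.11 and -1.01.

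Other genes of the pathway came from a list of 70, of which 56 were tested. In CFPAC-1, 4 rose and 8 fell with all libraries, 21.4% against the background of 16.6% (limma), with a median of -0.31 (-0.17 without control 2 and 3). Of the proteins that cut the receptor, ADAM17, a sheddase, rose by 1.07 (limma adjusted p = 0.0262). Of the enzymes that add sugars to Notch, XXYLT1 fell by 1.16 (limma adjusted p = 0.0164) and POFUT1, which adds a fucose, by 0.77 (0.0207). NUMBL, related to the Notch inhibitor NUMB, rose by 0.66, and the corepressor CIR1 by 0.70. The coactivator genes KAT2B and MAML1 fell by 1.00 and 0.82, the corepressor gene SPEN by 1.55 and HES6 by 1.10. None of these 9 passed without CFPAC-1 control 2 and 3, and all kept their sign. Then POFUT1 was at -0.87 and CIR1 at 1.06, as large as before, ADAM17 at 0.64, XXYLT1 at -0.54, MAML1 at -0.53 and SPEN at -0.92. NUMBL was at 0.22, KAT2B at -0.19 and HES6 at -0.17. In that fit 1 of 56 passed (1.79%, background 1.73%), DNER, a Notch ligand-like gene, at 0.95 (limma adjusted p = 0.0447), against -0.32 with all libraries (adjusted p = 0.596).

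In BxPC-3, 0 of the 56 genes passed on induction (limma), where 0.334% of all tested genes were called. An unadjusted p under 0.05 was found for 6, against 8.52% of all tested genes, and the median was -0.03. RBPJ itself stood at 2.80 ± 2.48 and 5.84 ± 5.19 FPKM in control and induced CFPAC-1 and at 2.07 ± 0.253 and 1.61 ± 0.652 FPKM in BxPC-3 (SD, n = 3). Its log2 change in CFPAC-1 was 0.78 (limma adjusted p = 0.332), and -0.22 without control 2 and 3 (adjusted p = 0.927). In BxPC-3 it was -0.26 (limma adjusted p = 0.974). For the difference between the lines 1 of 56 passed, against a background of 2.45%: XXYLT1, at 1.95 (limma adjusted p = 0.0293). Without CFPAC-1 control 2 and 3 the difference for XXYLT1 was 1.33 and did not pass.

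Between the induced lines 23 of the 56 passed, 16 higher and 7 lower in BxPC-3, 41.1% against the background of 36.2% (limma). DLL1, a further Delta ligand, was at 11.5 ± 0.701 FPKM in induced BxPC-3 and 0.00573 ± 0.00732 FPKM in induced CFPAC-1 (SD, n = 3), a log2 difference of 3.63. DNER went the other way, at 0.182 ± 0.0738 against 5.26 ± 0.187 FPKM. DLL1 and DNER, and TLE2 given below, each passed the filter only through the line where it was higher. The sheddases also went opposite ways: ADAM10 was higher in BxPC-3 by 1.34 (limma adjusted p = 0.00114) and ADAM17 lower, at -1.86. The fringe gene LFNG, which alters the response of the receptor to its ligands, was higher by 2.02, and the sugar transferase gene EOGT by 1.27. MIB2, a ligase for ligand uptake, was higher by 0.76, and the Deltex genes DTX4 and DTX3 by 2.30 and 1.28. TLE2, a Groucho corepressor, was at -2.01 and the deacetylase gene HDAC1 at 1.38. The duct factor gene SOX9, a known Notch target, was lower in BxPC-3, at -2.03 (limma adjusted p = 0.011). All of the genes named in this comparison also passed without CFPAC-1 control 2 and 3.

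Genes of the most similar pattern were sought for the receptor, ligand and target of highest mean level. Over the 12 libraries NOTCH1 was most like AC138028.4, HIPK2 and EIF4HP1 (Pearson r of 0.963 to 0.969), and over the 10 libraries without CFPAC-1 control 2 and 3 most like ITSN1, CLEC16A and POLG (0.965 to 0.971). JAG1 was most like ANK3, GFOD1 and CEP170B (0.961 to 0.972), and PRDM2, RHPN2 and HEXIM1 over the 10 libraries (0.978 to 0.984). HES4 was most like DUSP5, AAR2 and C9orf3 (0.959 to 0.969), and TLNRD1, AL512274.1 and CYR61 over the 10 libraries (0.976 to 0.987). No gene was common to both sets of libraries, and these correlations, over libraries that share lines and labels, are a description only.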

How the data were processed

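RNA-seq of 12 libraries gave 1 deposited table of 60564 genes. Its values are log2(FPKM + 1), computed by the authors and deposited as such per the file headers. FastQC, StringTie and the build GRCh38 are listed in the submitters' processing notes. An aligner, an annotation or strand use is not given in the sources used here. Read depth is unknown, so no counting interval is given. Column names tied each of the 12 columns to its sample.

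FPKM was recovered by undoing the logarithm. Genes that reached 1 FPKM in 3 or more libraries entered limma 3.58.1 (R 4.3.3) on the deposited log2 values, with 4 group means and 8 residual degrees of freedom (6 without CFPAC-1 control 2 and 3), and Benjamini-Hochberg adjusted p-values over 12860 genes at 0.05. The script was tested on simulated data. The 4 comparisons were induced against control in each line, the difference of these changes, and BxPC-3 against CFPAC-1 in induced libraries. Gene lengths and coordinates came from GENCODE 29, which held 96.5% of the gene identifiers, with a length for 99.6% of tested genes. Promoter windows came from RefSeq (GRCh38.p14).

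The 10 genes and all lists were chosen with earlier results of these data known. The genes named were these 10, the pathway genes RBPJ and ADAM10, per comparison and role up to 2 other pathway genes of largest change past the threshold, and 3 nearest in pattern. A further pathway gene that this rule names is not reported here. Alternatives were the pseudocount, the filter, a mean-variance trend, quantile normalization, a replicate block, each line alone and libraries left out. Same-numbered libraries deviated together between the lines, with correlations of 0.125 to 0.287 in induced and 0.119 to 0.162 in control cells. Numbers 2 and 3 did so with each other too, at 0.139 and 0.181 in induced and 0.116 and 0.124 in control cells. In both, 4 of 6 libraries correlated best with their own number. The values thus set number 1 against 2 and 3 more than they pair single numbers. The replicate block is given beside the comparison of the lines where it changes a call. The labels do not say what the numbers share. Changes within library numbers, and the filter applied to 10 libraries, were added after seeing the data. Proteins were not analysed here.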

Additional observations from a re-analysis of the deposited data

How the results depend on the processing

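The 12-library fit called 2138 genes in CFPAC-1, 43 in BxPC-3, 315 for the difference between the lines and 4660 between the induced lines. Without CFPAC-1 control 2 and 3 it called 222 in CFPAC-1 and 55 for the difference. A pseudocount of 0.1 gave 25 in BxPC-3 and 163 for the difference, no filter gave 73 in BxPC-3, and each line alone gave 364 in CFPAC-1 and 13 in BxPC-3. Leaving out each library in turn gave 506 to 5403, 2 to 249, 0 to 4148 and 3428 to 6078. The 0 came without BxPC-3 control 2 (limma), with 2281 genes at an unadjusted p under 0.05, and the 506, 249 and 3428 without CFPAC-1 control 2 or 3, BxPC-3 control 1 and BxPC-3 induced 3. The highest counts in CFPAC-1, the difference and the induced lines came without CFPAC-1 control 1.

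Of the 8 Notch genes these fits called 0 to 5 in CFPAC-1, 0 in BxPC-3 and 0 to 3 for the difference. Between the induced lines they called 1 to 6, and 6 without CFPAC-1 control 2 and 3 (background 44%). The counts of 5, 3 and 6 without CFPAC-1 control 1 stood against backgrounds of 42%, 32.3% and 47.3%. HEY1, which passed the filter partly through CFPAC-1 control 2 and 3, was in each of these highest counts. A filter on the 10 libraries without CFPAC-1 control 2 and 3 was chosen after seeing the data. With it 5 of 7 passed between the induced lines (background 44.3%), and 221 genes were called in CFPAC-1 and 54 for the difference. Without those 2 libraries 10 signs turned: in CFPAC-1 NOTCH1 to -0.74, JAG1 to -0.41, JAG2 to 0.33, HES4 to 0.46, HEY1 to 0.10 and NRARP to 0.32, and in the difference NOTCH1 to 0.11, JAG2 to -0.23, HES4 to -1.15 and NRARP to -2.35. Quantile normalization turned HES1 between the induced lines to -0.054. Leaving out 1 library turned signs within these ranges: in CFPAC-1 HES1 -0.88 to 0.41 and JAG1 -0.014 to 0.41, in BxPC-3 HEY1 -0.090 to 0.25 and JAG2 -0.15 to 0.45. In the difference they were HES1 -0.21 to 1.08, HES4 -0.024 to 1.28, NOTCH2 -0.44 to 0.26 and NRARP -0.58 to 1.79, and between the induced lines HES1 -0.82 to 0.47 and NOTCH2 -0.17 to 0.54. JAG2 between the induced lines passed in every fit, at 3.69 to 4.28 with 1 library left out. The cause of these changes was not tested.

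Quantile normalization moved the median over all tested genes from 0.12 to 0.00 between the induced lines and from 0.16 to 0.06 for the difference. Higher and lower calls went from 2751 and 1909 to 2348 and 2402, and from 172 and 143 to 90 and 160. With the library number as a replicate block, 1 Notch gene passed in CFPAC-1 (HES4, limma adjusted p = 0.0468) and 2 passed between the induced lines (JAG2, and HES4 at 0.0049). In CFPAC-1 the numbers did not pair control with induced libraries, while in BxPC-3 same-numbered libraries deviated together weakly. Deviations of same-numbered libraries correlated at -0.0798 to -0.0198 in CFPAC-1 and 0.0535 to 0.151 in BxPC-3, and 0 of 6 and 3 of 6 libraries correlated best with their own number. Apart from HES4 the block changed no call. The replicate block gave 2428, 33, 306 and 4881 genes.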

Other observations

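Further pathway genes, chosen after their values were seen, also set single libraries apart. DLL3, a Delta ligand usual in neuroendocrine cells, stood at 22.5 and 22.2 FPKM in CFPAC-1 control 2 and 3 and at 0.107 FPKM or less in the other 10 libraries. HEYL, a HES-related target, stood at 6.85 and 6.98 FPKM in the same libraries and at 0.385 FPKM or less elsewhere. MYC, a Notch target in some tissues, stood at 2.80, 56.6 and 43.1 FPKM in the 3 BxPC-3 control libraries, against 17.0, 3.39 and 3.93 FPKM in the 3 induced ones. In the CFPAC-1 control libraries MYC stood at 2.23, 27.0 and 3.59 FPKM, high in control 2 and not in control 3. SOX9 was higher in control 2 and 3 of both lines, at 55.1 and 53.0 FPKM in CFPAC-1 and 16.8 and 17.1 FPKM in BxPC-3, than in control 1, at 17.9 and 4.13 FPKM. ADAM10 had log2 changes of -0.27 in CFPAC-1 (-0.07 without control 2 and 3) and 0.09 in BxPC-3, none past the limma threshold.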
